A study of Mus musculus with 6 samples.

Results

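The CD28 and B7 families are the paired receptors and ligands that set how strongly a T cell answers its antigen. They are described here in 6 mouse tumors as the 10 genes Pdcd1, Ctla4, Cd28 and Icos (4 receptors of T cells) and Cd274, Pdcd1lg2, Cd80, Cd86, Icosl and Cd276 (6 ligands). The members were taken by gene symbol from the deposited table, in which all 10 were found among 23122 genes, and all 10 passed the filter on low counts. The tumors grew from 500000 CT26 cells, a murine colorectal cancer line, injected under the skin of female BALB/c mice aged 6 to 8 weeks. Animals were randomized once tumors measured 100 to 200 mm3. The TP-18 group (3 tumors) was given TP-18, named in the series title as an antagonist of the prostaglandin E2 receptors EP2 and EP4, at 50 mg/kg by mouth once a day for 3 weeks. The vehicle group (3 tumors) received vehicle over the same time. The 6 libraries held 34813482 to 36489081 counted reads each. Both groups were otherwise alike in line, host strain and sex, and every tumor is a mixture of CT26 cells and host cells.

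In textbook terms, CD28 on a resting T cell gives the second, costimulatory signal when it binds CD80 or CD86 on an antigen-presenting cell, and ICOS, which appears on activated cells, gives a related signal through its own ligand. CTLA-4 competes with CD28 for CD80 and CD86 and is held at high levels by regulatory T cells, and PD-1 on activated or exhausted cells carries an inhibitory signal from PD-L1 and PD-L2. PD-L1 can be induced by interferon gamma on many cell types including tumor cells, whereas PD-L2 is best known from dendritic cells and macrophages. In tumors several of these proteins are the targets of checkpoint-blocking antibodies.

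Of the 10 genes, 4 were higher in TP-18 tumors: the receptors Pdcd1, Cd28 and Icos and the ligand Pdcd1lg2. Each passed the quasi-likelihood test of edgeR at an adjusted p (Benjamini-Hochberg) under 0.05, in which 7.09% of all 14189 tested genes were called higher and 5.26% lower. None of the 10 was called lower by edgeR, DESeq2 or limma-voom. At an unadjusted p under 0.05, 6 were higher and 1 lower in edgeR, and 7 higher and 2 lower in DESeq2. The share of all tested genes at an unadjusted p is not given here. The same 4 genes passed whichever single tumor was left out, which 2.22% of the tested genes did in this direction. The median log2 change was 1.16 over the 10 genes, 1.90 over the receptors and 0.53 over the ligands, against -0.01 over all tested genes. Every TP-18 tumor exceeded every vehicle tumor for 6 of the 10, as it did for 18% of the tested genes, and every TP-18 tumor lay below every vehicle tumor for 1 of them, Cd276, as for 17.8%. The groups did not overlap in either direction for 35.8% of the tested genes.

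The 300-base windows shown are those around the transcription starts of Pdcd1, Pdcd1lg2 and Cd274. Pdcd1 and Pdcd1lg2, a receptor and its ligand, both rose, and Cd274, the neighbour of Pdcd1lg2, was not called. The windows come from RefSeq in the build GRCm38.p6 and run from 250 bases before to 50 bases after the start. Windows matched by symbol for 7 of the 10 genes, and none was available for Cd28, Icos and Cd86. Of these, Cd28 and Icos were called higher. The start used for Cd274 lies inside the gene's annotated span, not at its outer end. Capitals mark every match, on either strand, to 5 motifs: the interferon gamma-activated site TTCNNNGAA, the interferon regulatory factor element (GAAA and GAAA parted by any 2 bases), the NFAT core GGAAA, the AP-1 site TGANTCA and the NF-kappaB form (GGGA and CC parted by any 4 bases).
Pdcd1, chr1:94052504-94052803, minus strand: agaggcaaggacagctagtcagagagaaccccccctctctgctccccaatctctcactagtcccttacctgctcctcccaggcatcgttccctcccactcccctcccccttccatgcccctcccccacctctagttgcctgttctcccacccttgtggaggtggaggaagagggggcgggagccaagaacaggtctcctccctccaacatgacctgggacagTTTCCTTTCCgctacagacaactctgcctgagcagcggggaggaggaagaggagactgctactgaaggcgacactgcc
Pdcd1lg2, chr19:29410669-29410968, plus strand: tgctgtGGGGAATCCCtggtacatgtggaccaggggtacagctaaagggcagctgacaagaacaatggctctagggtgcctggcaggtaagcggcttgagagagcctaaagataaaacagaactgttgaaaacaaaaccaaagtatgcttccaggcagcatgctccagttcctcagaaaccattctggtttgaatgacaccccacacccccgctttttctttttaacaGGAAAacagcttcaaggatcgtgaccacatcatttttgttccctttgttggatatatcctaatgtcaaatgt
Cd274, chr19:29367188-29367487, plus strand: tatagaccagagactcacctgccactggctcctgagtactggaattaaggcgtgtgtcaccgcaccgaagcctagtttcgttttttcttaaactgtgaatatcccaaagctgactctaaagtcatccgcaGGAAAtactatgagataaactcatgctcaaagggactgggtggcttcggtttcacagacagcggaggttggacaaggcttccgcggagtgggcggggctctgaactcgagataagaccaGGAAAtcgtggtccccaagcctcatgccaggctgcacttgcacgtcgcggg
The Pdcd1 window held a pair of adjoining matches to the NFAT core on the opposite strand, 28 and 23 bases before the start, and the Pdcd1lg2 window held 1 match 22 bases before the start. The Cd274 window held 2, of which 1 began at the base before the start. A match to GGAAA occurred in 61.3% of the 32851 windows in the table, so its presence marks out none of these genes. The Pdcd1lg2 window alone of the 3 held a match to the NF-kappaB form, GGGGAATCCC, found in 20.7% of all windows. The windows of Cd80 and Icosl, not shown here and not called in the test, also held a match to that form. The site TTCNNNGAA was in 8.3% of all windows, the interferon regulatory factor element in 3.44% and TGANTCA in 7.81%, and none of them was among the letters of these 3 windows.

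Among the receptors, Pdcd1, which encodes PD-1 (Entrez 18566, chromosome 1, 94038305 to 94052553 in GRCm38.p6), had 12.4, 14.2 and 13.4 CPM (counts per 1000000 reads after scaling of the libraries) in TP-18 tumors, against 5.29, 2.36 and 2.47 CPM in vehicle tumors. The groups did not overlap, and vehicle 1 had over double the level of the other vehicle tumors. The log2 change, TP-18 minus vehicle, was 1.98 ± 0.32 (SE), a 3.94-fold difference with an adjusted p of 0.0106 in edgeR. These values rest on 1504 reads in TP-18 and 342 reads in vehicle tumors. Without vehicle 1 the log2 change of Pdcd1 was 2.48, and its adjusted p ranged over 0.00066 to 0.0435 in edgeR when each tumor was left out in turn.

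Cd28 (Entrez 12487, chromosome 1, 60746388 to 60773359), the costimulatory receptor itself, measured 6.94, 10.8 and 6.38 CPM in TP-18 tumors, against 1.65, 2.24 and 2.62 CPM in vehicle tumors. Its log2 change was 1.89 ± 0.28 (SE), with an edgeR adjusted p of 0.00786. Icos (Entrez 54167, chromosome 1, 60960773 to 61000322), the inducible costimulator of activated T cells, measured 8.63, 11.8 and 7.67 CPM in TP-18 tumors, against 2.13, 2.17 and 3.19 CPM in vehicle tumors. For both genes TP-18 2 was the highest tumor and no vehicle tumor came near the TP-18 range. Icos rose 3.74-fold and Cd28 3.71-fold, and the ratio of Icos to Cd28 was nearly the same in both groups, as given further on.

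Ctla4 (Entrez 12477, chromosome 1, 60909025 to 60915832), the inhibitory competitor of CD28, was the receptor that did not pass the test. It measured 7.04, 12.7 and 8.23 CPM in TP-18 tumors, against 1.62, 6.4 and 6.78 CPM in vehicle tumors. All TP-18 values were above all vehicle values, but vehicle 2 and vehicle 3 came within 1 CPM of the lowest TP-18 tumor and vehicle 1 lay far below them. The log2 change was 0.92 with a 95% interval of -0.35 to 2.19 and an edgeR adjusted p of 0.296, so neither no change nor a change as large as that of the other 3 receptors lies outside the interval. The log2 change was 0.51 without vehicle 1 and 1.23 without vehicle 3.

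**Figure D1:**
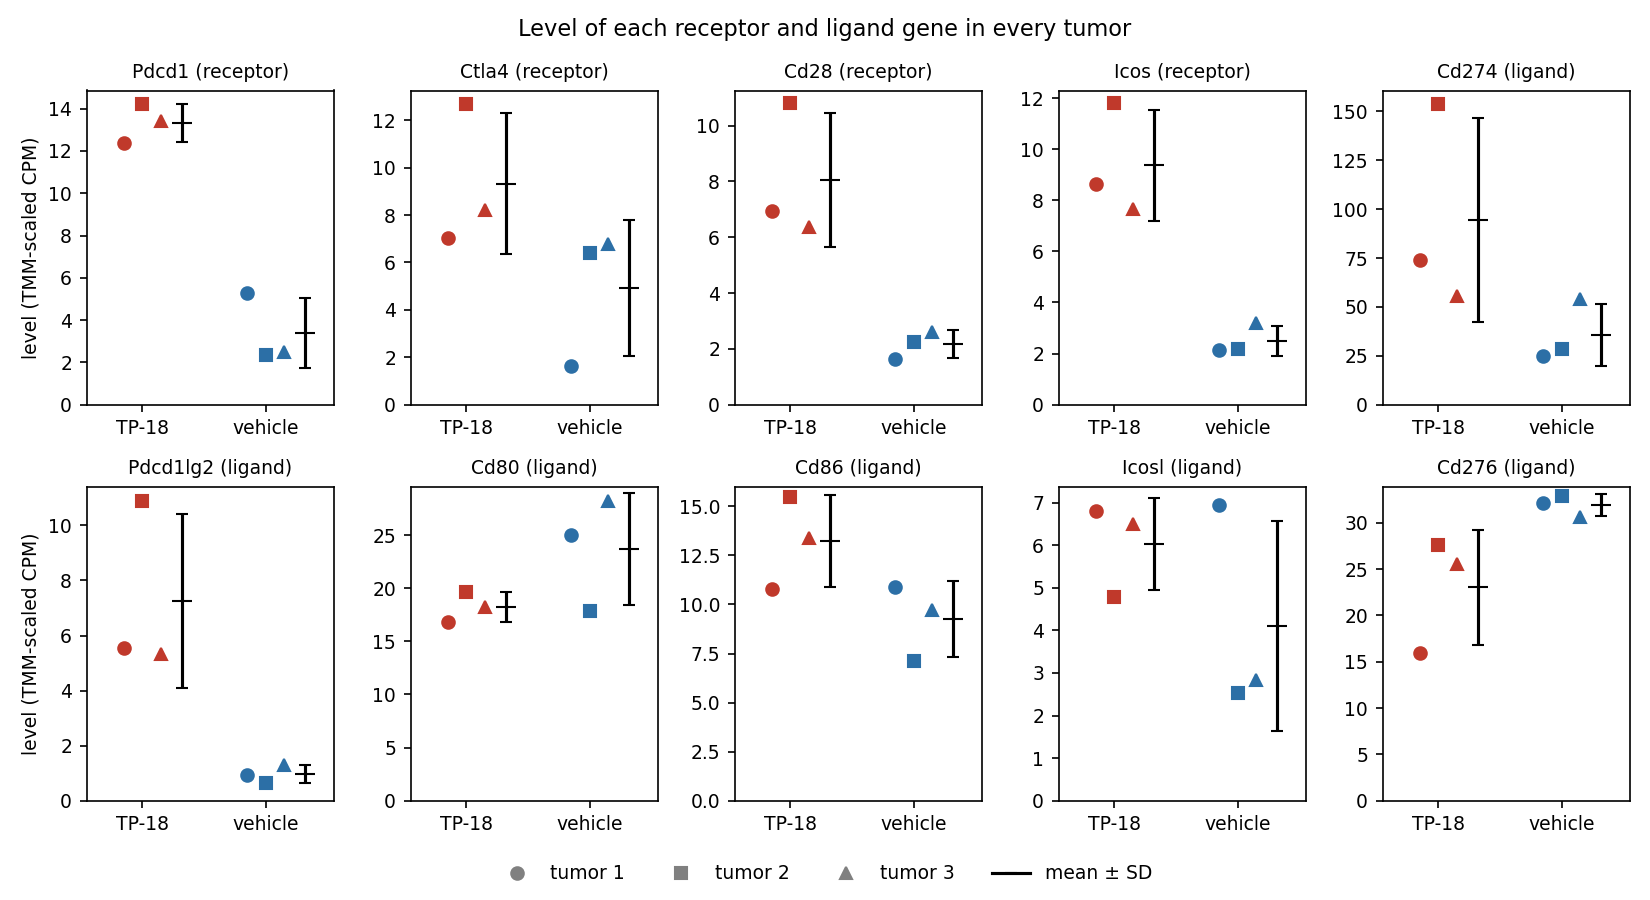
Level of each of the 10 genes in TMM-scaled CPM (vertical axes, from 0) in the 3 TP-18 and the 3 vehicle tumors; each symbol is 1 tumor, symbols mark the tumor number, which does not pair tumors across groups, and bars give the mean ± SD. Pdcd1, Cd28, Icos and Pdcd1lg2 separate the groups widely, whereas Cd274 at 55.8 CPM in TP-18 3 and 54 CPM in vehicle 3 nearly meets.

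Among the ligands, Pdcd1lg2, the gene of PD-L2 (Entrez 58205, chromosome 19, 29410919 to 29472927), had the largest fold change of the 10. It measured 5.54, 10.9 and 5.33 CPM in TP-18 tumors, against 0.939, 0.643 and 1.31 CPM in vehicle tumors, resting on 811 reads in TP-18 and 96 reads in vehicle tumors. Every TP-18 tumor had more than 4 times the highest vehicle level. The log2 change was 2.91 ± 0.39 (SE), or 7.49-fold, with an edgeR adjusted p of 0.00578. On the log2(FPKM + 1) scale, which compresses low values, the log2 change of Pdcd1lg2 was 1.31 and its adjusted p in limma was 0.00945.

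Cd274, which encodes PD-L1 (Entrez 60533, chromosome 19, 29362107 to 29388095), varied widely within both groups. It measured 74.2, 154 and 55.8 CPM in TP-18 tumors, against 25.1, 28.4 and 54 CPM in vehicle tumors. TP-18 2 was about 2 times the next tumor, and vehicle 3 was nearly level with TP-18 3. The log2 change was 1.40 ± 0.50 (SE) with a 95% interval of 0.13 to 2.67, and the edgeR adjusted p of 0.136 did not pass. DESeq2 gave 0.0584 for Cd274, and leaving out single tumors gave edgeR adjusted p-values from 0.081 without vehicle 3 to 0.287 without vehicle 2.

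The ligands shared by CD28 and CTLA-4 did not pass the test. Cd80 (Entrez 12519, chromosome 16, 38457430 to 38495958), found on activated antigen-presenting cells, measured 16.8, 19.6 and 18.2 CPM in TP-18 tumors, against 25, 17.9 and 28.2 CPM in vehicle tumors. Cd86 (Entrez 12524, chromosome 16, 36568956 to 36666158), present on resting as well as activated antigen-presenting cells, measured 10.8, 15.5 and 13.4 CPM in TP-18 tumors, against 10.9, 7.1 and 9.74 CPM in vehicle tumors. Both sets of values overlapped between groups. The log2 change of Cd80 was -0.38 (95% interval -0.77 to 0.00, edgeR adjusted p = 0.169) and that of Cd86 was 0.52 (95% interval 0.05 to 0.98, edgeR adjusted p = 0.129). Neither passed in any of the alternative fits.

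Icosl, the gene of the ICOS ligand (Entrez 50723, chromosome 10, 78069368 to 78079525), measured 6.8, 4.79 and 6.49 CPM in TP-18 tumors, against 6.94, 2.54 and 2.84 CPM in vehicle tumors. Vehicle 1 was the highest of all 6 tumors and the other vehicle tumors were the lowest. The log2 change was 0.55 (95% interval -0.37 to 1.47, edgeR adjusted p = 0.391). Without vehicle 1 it was 1.18 with an edgeR adjusted p of 0.0239, and Icosl was the only gene of the 10 whose call changed when a tumor was left out.

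Cd276, which encodes B7-H3, a ligand of tumor and stromal cells (Entrez 102657, chromosome 9, 58524300 to 58555033), measured 16, 27.6 and 25.6 CPM in TP-18 tumors, against 32.2, 32.9 and 30.6 CPM in vehicle tumors. The vehicle tumors were close together and TP-18 1 lay well below the rest. The log2 change was -0.47 ± 0.19 (SE), with a 95% interval of -0.91 to -0.03, an unadjusted p of 0.0406 and an edgeR adjusted p of 0.147. DESeq2 gave an adjusted p of 0.0884 for Cd276.

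**Figure D2:**
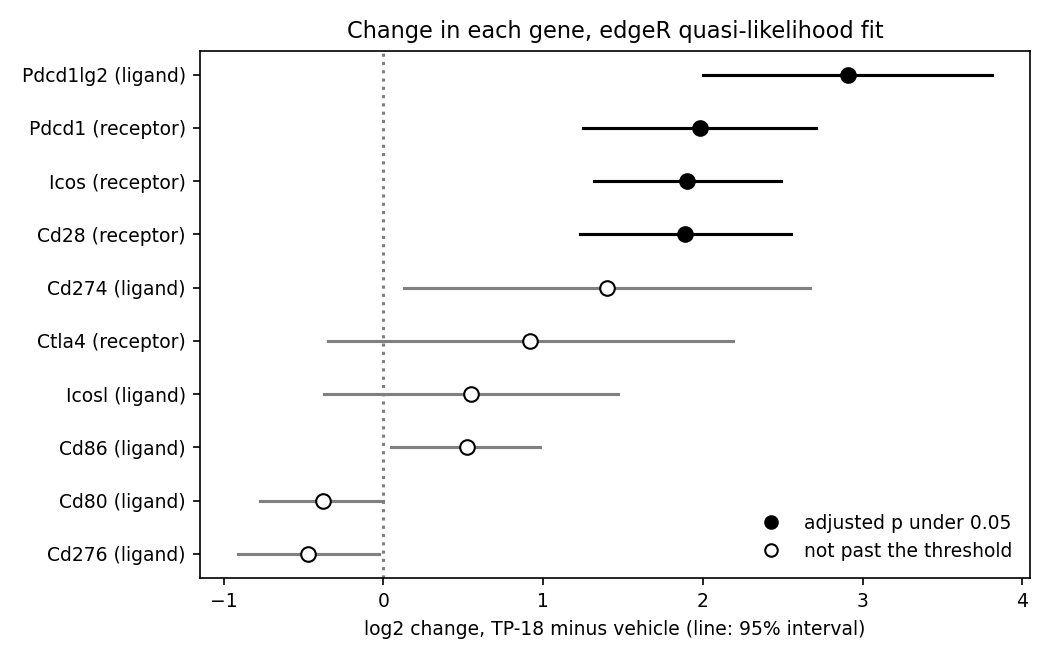
Log2 change of each gene, TP-18 minus vehicle, from the edgeR fit across all genes (horizontal axis), with 95% intervals as lines, filled points for an adjusted p under 0.05 and open points otherwise. Pdcd1lg2 is largest at 2.91, Pdcd1, Icos and Cd28 lie between 1.89 and 1.98, and Cd80 and Cd276 are the only genes below 0.

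Levels can be compared between genes only per length, for which the authors' FPKM (reads per kilobase of gene and 1000000 reads of the library) was used. In TP-18 tumors Cd274 was highest at 24.2 ± 13 FPKM (SD, n = 3), with no overlap with the next gene, Cd276, at 7.58 ± 2.03 FPKM. In vehicle tumors Cd276 was first at 9.51 ± 0.655 FPKM and Cd274 second at 8.25 ± 3.34 FPKM, and their ranges overlapped. Pdcd1 was the third of the 10 in TP-18 tumors at 7.25 ± 0.466 FPKM and the sixth in vehicle tumors at 1.68 ± 0.911 FPKM. Among TP-18 tumors, Icos, Pdcd1lg2, Icosl and Cd28 had means of 1.85 to 2.27 FPKM and each overlapped its neighbour in that order. Among vehicle tumors, Pdcd1lg2 was last at 0.268 ± 0.0882 FPKM, below the whole range of Cd28 at 0.451 ± 0.0838 FPKM. By group medians, Icosl at 2.29 FPKM stood above Icos at 2.09 FPKM in TP-18 tumors, and Icosl in vehicle tumors was at 0.861 FPKM, against a mean of 1.31 FPKM.

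**Figure D3:**
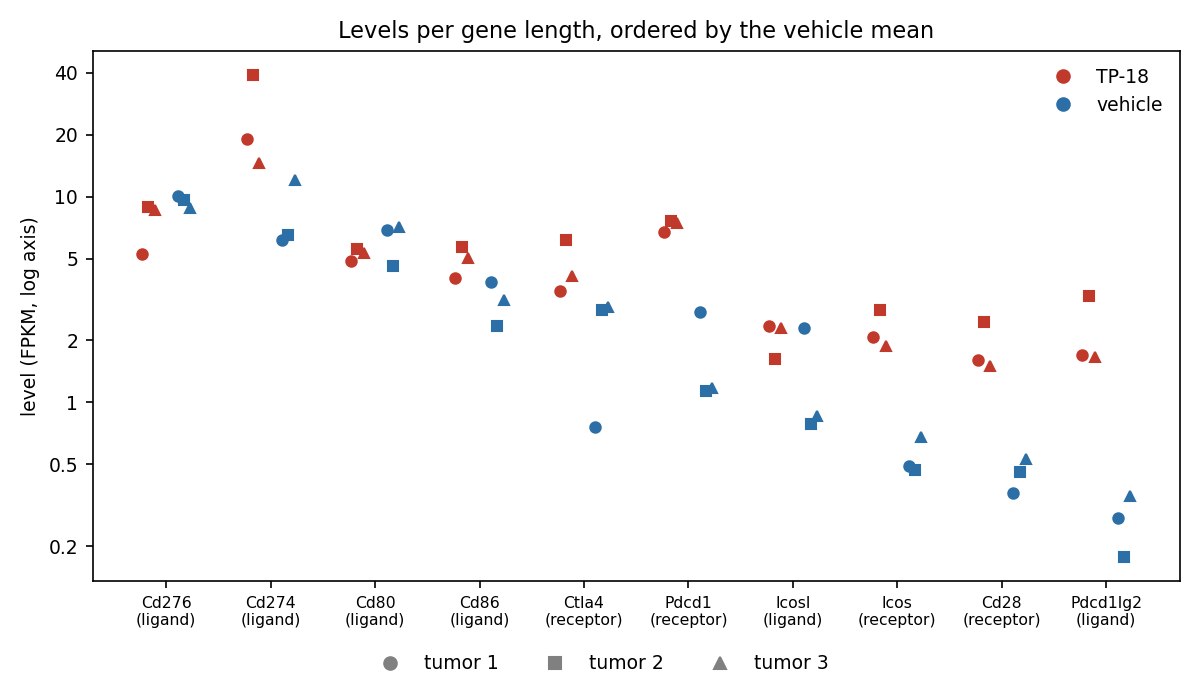
Level of each gene in FPKM (log vertical axis) in every tumor, with genes ordered by their vehicle mean from Cd276 at 9.51 to Pdcd1lg2 at 0.268 FPKM; symbols mark the tumor number within a group. Pdcd1lg2, Cd28, Icos and Pdcd1, low in vehicle tumors, are those with the clearest gap to the TP-18 tumors.

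Members can also be given as shares of their sum within a tumor, as a description. Summed over the 6 ligands, levels were 46.2 ± 15.4 FPKM in TP-18 and 28.7 ± 4.21 FPKM in vehicle tumors (SD, n = 3 each). Cd274 made up 38.9% to 60.8% of that sum in TP-18 tumors and 20.8% to 37.4% in vehicle tumors, and Cd276 made up 13.9% to 22.8% in TP-18 and 27.2% to 40.1% in vehicle tumors. Cd80 held 8.67% to 14.2% of the ligand sum in TP-18 tumors and 19.1% to 23.2% in vehicle tumors. Pdcd1lg2 stayed a minor part, at 4.45% to 5.14% in TP-18 and 0.732% to 1.09% in vehicle tumors. These shares add to 100 within a tumor, so a higher share of 1 gene lowers the others. The 4 receptors summed to 15.9 ± 2.7 FPKM in TP-18 and 4.84 ± 0.472 FPKM in vehicle tumors. Of the receptor sum, Ctla4 was 24.9% to 32.3% in TP-18 tumors, and 17.4% in vehicle 1 but 57.5% and 55.1% in vehicle 2 and vehicle 3.

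Ratios within a tumor, which do not depend on how libraries are scaled, were compared for 6 pairs of members by a two-sided exact permutation test, whose smallest p for 3 against 3 is 0.1. The log2 ratio of Cd80 to Cd86 (FPKM) was 0.27, -0.03 and 0.08 in TP-18 tumors, against 0.83, 0.97 and 1.17 in vehicle tumors. Cd80 thus stood near the level of Cd86 in every TP-18 tumor and above it in every vehicle tumor, with a difference of -0.88 (exact p = 0.1, the smallest possible, 0.3 after adjustment over the 6 pairs). The log2 ratio of Cd274 to Pdcd1lg2 was 3.48, 3.57 and 3.13 in TP-18 tumors, against 4.48, 5.21 and 5.10 in vehicle tumors. PD-L1 transcripts exceeded PD-L2 transcripts in every tumor, by less in TP-18 tumors, and the difference of -1.54 also had the smallest exact p, 0.1 (adjusted 0.3). The size of the difference ran from -0.97 to -0.79 for Cd80 to Cd86 and from -1.76 to -1.40 for Cd274 to Pdcd1lg2 as each tumor was left out. The other 4 pairs overlapped between groups: the log2 ratio of Icos to Cd28 was 0.31 ± 0.10 in TP-18 and 0.28 ± 0.22 in vehicle tumors (SD, n = 3 each), and that of Ctla4 to Cd28 was 1.30 ± 0.17 in TP-18 and 2.05 ± 0.85 in vehicle tumors.

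The receptors are carried mainly by T cells, whose markers differed between the groups. In bulk tumors, a difference in the number of cells of a type and a difference in RNA per cell cannot be told apart. The 4 CD3 chains of the T cell receptor complex summed to 27.3, 30.6 and 27 CPM in TP-18 tumors, against 11.2, 4.32 and 6.25 CPM in vehicle tumors. All 4 were called higher with all tumors, but 2 were called without TP-18 1 and 1 without TP-18 2 or TP-18 3, and only Cd247 passed whichever tumor was left out. Relative to that sum, the log2 ratio of Pdcd1 was -1.14, -1.10 and -1.01 in TP-18 tumors, against -1.08, -0.87 and -1.34 in vehicle tumors. The difference of 0.01 lay well inside the spread of the vehicle tumors (two-sided exact permutation p = 1, n = 3 each). Vehicle 1, which had the most Pdcd1 of the vehicle tumors, also had the most CD3. The sign of the Pdcd1 difference was negative with the other T cell markers as denominator, as listed in the closing section.

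For Ctla4, Cd28 and Icos the ratio to the CD3 chains was spread widely among the vehicle tumors. The log2 ratio of Ctla4 to the CD3 sum was -1.95, -1.27 and -1.71 in TP-18 tumors, against -2.78, 0.57 and 0.12 in vehicle tumors. Vehicle 1 was lowest of all and vehicle 2 and 3 the highest, and the difference of -0.95 had an exact permutation p of 0.4 (n = 3 each). The difference was -1.99 without vehicle 1, -0.31 without vehicle 2 and -0.54 without vehicle 3. The ratios of Cd28 and Icos were likewise lowest of all 6 tumors in vehicle 1, at -2.76 and -2.39, and were -0.95 and -0.99 in vehicle 2. Their differences, -0.20 for Cd28 and -0.17 for Icos, were smaller than the SD of either gene's vehicle tumors and turned to between 0.00 and 0.15 without vehicle 2 or vehicle 3.

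For the ligands the sum of 10 macrophage and monocyte markers was the denominator, with 2660 to 3440 CPM in TP-18 and 1430 to 2110 CPM in vehicle tumors. Pdcd1lg2 was higher relative to it in every TP-18 tumor, by 2.14 on the log2 scale. Cd80, Cd86 and Cd276 were lower relative to it in every TP-18 tumor, with differences of -1.11, -0.23 and -1.26. Each of these 4 had an exact permutation p of 0.1, the smallest possible at n = 3 each, and 0.25 after adjustment over the 10 ratios to marker sums. The marker sum itself was higher in every TP-18 tumor, so a gene of unchanged level would also be lower relative to it there. Cd86 was lower relative to the sum although its own log2 change was 0.52, and the own log2 change of Cd276 was -0.47. Cd276 is described above as a ligand of tumor and stromal cells, so this sum is no measure of the cells that carry it. Which cells carried each ligand in these tumors was not tested. Cd274, at a difference of 0.60, and Icosl, at -0.06, overlapped between groups. The difference for Cd274 was 0.25 without vehicle 1 and 0.29 without TP-18 2. Against the sum of all 8 dendritic cell markers, the differences were 2.91 for Pdcd1lg2, -0.34 for Cd80, 0.54 for Cd86 and -0.49 for Cd276. The actin-bundling gene Fscn1 alone made up 85.6% to 94.6% of that sum. Without Fscn1, a denominator chosen after the data were seen, they were 1.72 for Pdcd1lg2, -1.52 for Cd80, -0.64 for Cd86 and -1.67 for Cd276.

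**Figure D4:**
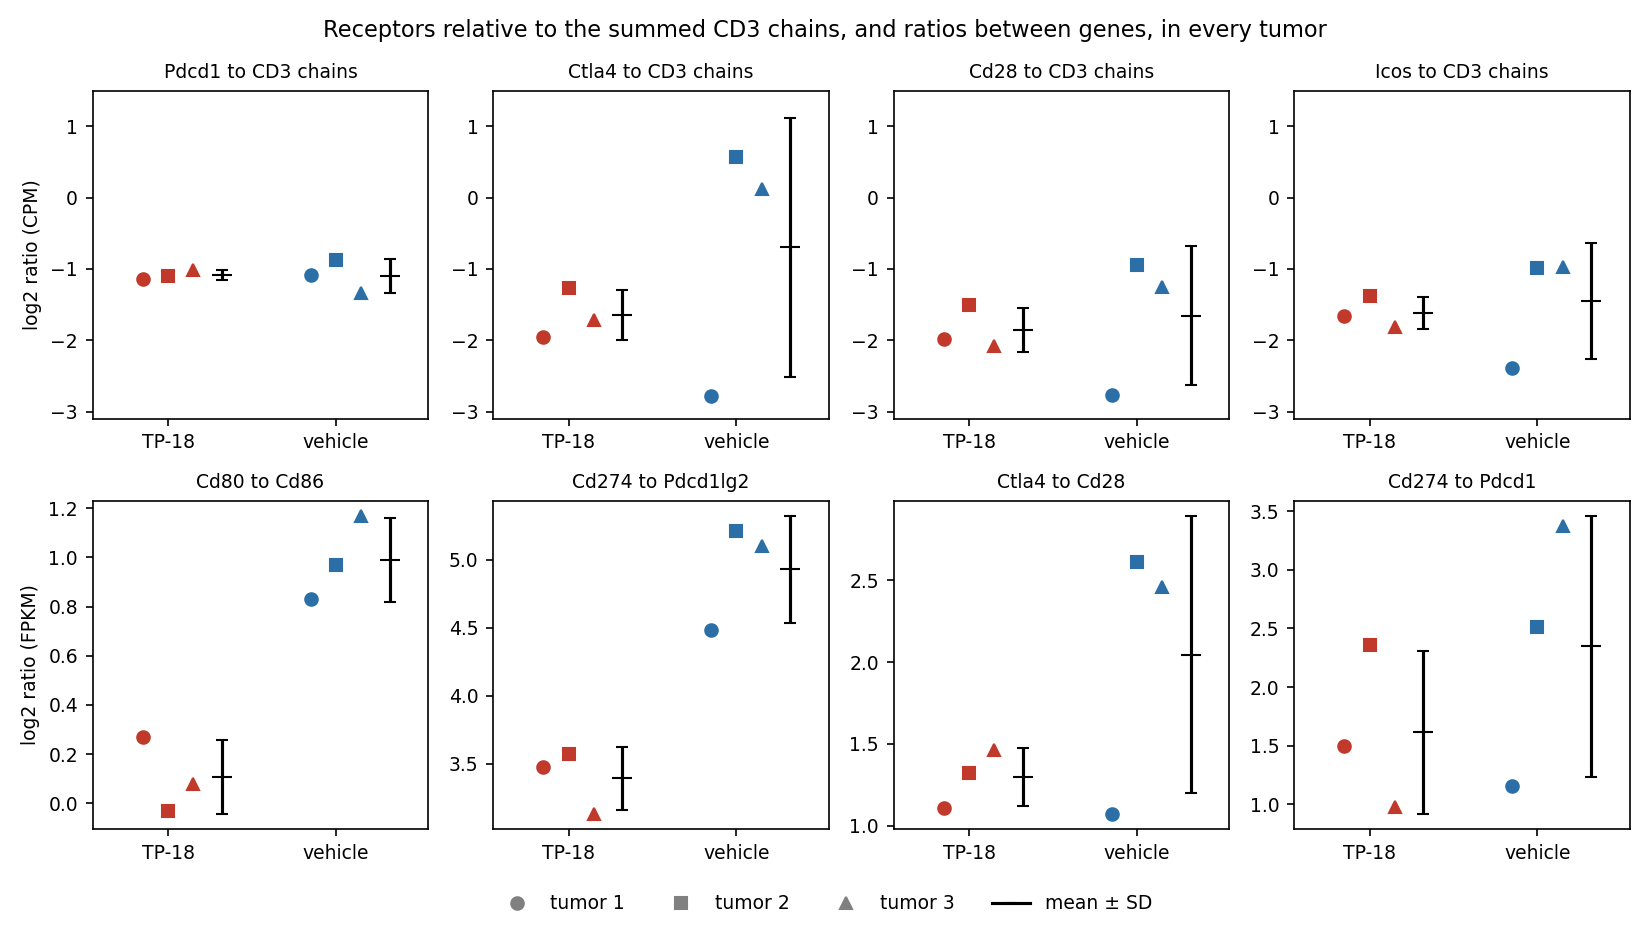
Log2 ratios in every tumor (symbols, with mean ± SD as bars): in the upper row each receptor to the summed CPM of the CD3 chains on a shared axis, in the lower row 4 ratios between genes in FPKM, each on its own axis. Pdcd1 to CD3 lies between -1.34 and -0.87 in all 6 tumors, while Cd80 to Cd86 and Cd274 to Pdcd1lg2 separate the groups.

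Other markers that differed with treatment are given here since their part in the results above was not tested. With all tumors in the fit, all 8 other T cell markers were called higher by edgeR (median log2 change 2.30, summed levels of 70.4 to 77.4 CPM in TP-18 and 12.2 to 24.1 CPM in vehicle tumors), as were all 4 NK cell markers (2.15, 25.2 to 28.6 CPM in TP-18 and 5.36 to 7.34 CPM in vehicle tumors). The 8 T cell calls were 4 without vehicle 2 and 5 without any 1 of the TP-18 tumors, and 3 of the 4 NK cell markers passed whichever tumor was left out. Of 10 macrophage and monocyte markers and 8 dendritic cell markers 4 each were higher, with medians of 0.69 and 1.67, and the dendritic cell sum without Fscn1 was 23.3 to 26.6 CPM in TP-18 and 9.87 to 12.8 CPM in vehicle tumors. The macrophage and monocyte calls were 2 without vehicle 2 or TP-18 1 and 1 without TP-18 2 or TP-18 3, and the dendritic cell calls were 2 without TP-18 3. Of 6 skeletal muscle markers 5 were higher (median 1.98, 47.1 to 91 CPM in TP-18 and 8.37 to 22.4 CPM in vehicle tumors), with 3 called by limma-voom and 2 by edgeR without vehicle 2, without TP-18 1 or without TP-18 3. Of 4 tested red blood cell markers 3 were lower in edgeR (median -3.41, 13.6 to 30.6 CPM in TP-18 and 59.8 to 362 CPM in vehicle tumors), but limma-voom called 0, and edgeR called 0 without vehicle 2 and without any 1 of the TP-18 tumors. No endothelial or fibroblast marker was called by edgeR, with 0 and 1 past an unadjusted p under 0.05, 1 called by DESeq2 in each list and none by limma-voom. The endothelial sum was 99.8 to 199 CPM in TP-18 and 63.7 to 150 CPM in vehicle tumors, and the fibroblast sum 2650 to 4130 CPM in TP-18 and 2340 to 6380 CPM in vehicle tumors. B cell markers were near 0, summing to 1.88 to 2.15 CPM in TP-18 and 0.468 to 1.2 CPM in vehicle tumors, with 1 of 6 tested and not called by edgeR, DESeq2 or limma-voom, also not at an unadjusted p under 0.05 in edgeR. Without vehicle 1 edgeR called that 1 B cell marker higher, and without vehicle 3 it called 1 fibroblast marker higher. Epithelial markers summed to 9.82 to 11.9 CPM in TP-18 and 9.99 to 19.1 CPM in vehicle tumors, although the line is labelled a colorectal cancer. Most of that sum came from Krt18, at 5.84 CPM in TP-18 and 10.6 CPM in vehicle tumors on average, and Cdh1, at 4.09 CPM in TP-18 and 1.85 CPM in vehicle tumors. Of the other 4, Epcam had 0.341 CPM in TP-18 and 0.0208 CPM in vehicle tumors, Krt8 0.169 CPM in TP-18 and 0.416 CPM in vehicle tumors, and Cldn7 4 reads in TP-18 and 0 in vehicle tumors. Krt19 averaged 0.0992 CPM in TP-18 and 1.12 CPM in vehicle tumors, with 2.94 CPM in vehicle 3 against 0.114 and 0.306 CPM in vehicle 1 and vehicle 2. Of the 2 tested epithelial markers edgeR called none, with 1 higher and 1 lower at an unadjusted p under 0.05. DESeq2 called both, and limma-voom called 1 higher.

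The route from interferon gamma to PD-L1 is known to run through the receptor, the JAK kinases and IRF1. Of its 10 listed genes 5 were higher and none lower in edgeR, also with none lower at an unadjusted p under 0.05 or in DESeq2 and limma-voom (median log2 change 0.37). Ifng, the cytokine, rose by 3.42 ± 0.50 (SE, edgeR adjusted p = 0.00726) and Irf1 by 1.30 ± 0.17 (0.00604), and both passed whichever tumor was left out. Irf1 measured 226, 265 and 162 CPM in TP-18 tumors, against 85.5, 84.9 and 94.5 CPM in vehicle tumors. Whether changes in this route bear on Cd274 was not tested. Ifngr1, a receptor chain, rose by 0.49 ± 0.11 (0.0319), but leaving out any tumor other than vehicle 1 ended the call. The adjusted p of Ifngr1 was then 0.115 (vehicle 2 left out), 0.0661 (vehicle 3), 0.07 (TP-18 1), 0.0902 (TP-18 2) and 0.11 (TP-18 3). Irf9 rose by 0.62 ± 0.14 (0.0316), and its adjusted p was 0.0639 (vehicle 1 left out), 0.11 (vehicle 2), 0.0948 (TP-18 1) and 0.0825 (TP-18 2) in the fits that ended the call. Irf2 (0.25, adjusted p = 0.188) and the kinase Jak2 (0.19, adjusted p = 0.229) did not pass.

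Below the receptors, CD28 signals through phosphoinositide 3-kinase, GRB2-type adaptors and protein kinase C theta, and PD-1 recruits tyrosine phosphatases. Of 12 listed signalling genes 7 were higher and none lower in edgeR, also with none lower there at an unadjusted p under 0.05 (median log2 change 1.14). DESeq2 called 8 higher and limma-voom 7, and neither called any lower. At an unadjusted p under 0.05 DESeq2 had 1 lower. Prkcq, protein kinase C theta itself, rose by 2.18 ± 0.25 (SE, edgeR adjusted p = 0.00327), Pik3cd, the leukocyte catalytic subunit of the lipid kinase, by 1.19 ± 0.14 (0.00327) and Vav1, an exchange factor, by 1.24 ± 0.16 (0.00502). Ptpn6, the leukocyte phosphatase SHP-1, rose by 1.09 ± 0.14 (0.0053). Ptpn11, the broadly expressed phosphatase SHP-2 that binds PD-1, had 212 ± 5.3 CPM in TP-18 and 214 ± 13.7 CPM in vehicle tumors (SD, n = 3 each, edgeR adjusted p = 0.9), and was picked out after its values were seen. Pik3r1, a regulatory subunit, had an adjusted p of 0.0574 at a log2 change of 0.58, and Ppp2ca, a phosphatase subunit, 0.171 at -0.19.

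Relatives and partners of the family gave 4 higher of 5 tested genes (median log2 change 1.43), and none lower in edgeR, DESeq2 or limma-voom, also at an unadjusted p under 0.05. A further 5 of the 10 listed were too low to test. Btla, an inhibitory receptor of lymphocytes, rose by 2.74 ± 0.28 (SE, edgeR adjusted p = 0.00226), and its ligand Tnfrsf14, or HVEM, by 1.43 ± 0.12 (0.00149). Vsir, the gene of VISTA, rose by 0.68 ± 0.16 (0.0375), and did not pass at 0.082 (vehicle 2 left out), 0.0531 (TP-18 1), 0.0989 (TP-18 2) and 0.106 (TP-18 3). Cd160, another binder of HVEM, rose by 2.44 ± 0.65 (0.0465) on 165 reads in TP-18 and 27 in vehicle tumors, and did not pass at 0.147 (vehicle 2 left out), 0.121 (TP-18 1), 0.105 (TP-18 2) and 0.125 (TP-18 3). Rgmb, a binding partner of PD-L2, had 74.1 ± 9.75 CPM in TP-18 and 66.1 ± 7.41 CPM in vehicle tumors (SD, n = 3 each, edgeR adjusted p = 0.391).

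The genes that act on surface levels of PD-L1, CD86 and CTLA-4 showed no call among 5 tested genes in edgeR, with 2 higher and 1 lower at an unadjusted p under 0.05, 1 higher in DESeq2 and none in limma-voom (median log2 change 0.23). Marchf1, a ubiquitin ligase that removes CD86 from the surface, had 21.6 ± 6.34 CPM in TP-18 and 8.99 ± 3.6 CPM in vehicle tumors (SD, n = 3 each, edgeR adjusted p = 0.0687). Cmtm6, which protects PD-L1 from breakdown, had 51.7 ± 1.93 CPM in TP-18 and 44.1 ± 2.16 CPM in vehicle tumors (edgeR adjusted p = 0.0934, n = 3 each).

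Of 10 transcription factors of activated T cells 4 were higher and none lower in edgeR, where 1 was lower at an unadjusted p under 0.05 and DESeq2 called that 1 lower and limma-voom none (median log2 change 1.28). Nfatc2, a factor activated by calcium signals, rose by 1.39 ± 0.14 (SE, edgeR adjusted p = 0.00213), Tbx21, or T-bet, by 2.54 ± 0.37 (0.00693) and Eomes by 1.51 ± 0.23 (0.00862). Foxp3, the factor of regulatory T cells, rose by 1.89 ± 0.47 (0.0376) but passed in no fit with a tumor left out, at 0.0513, 0.0849 and 0.0565 without vehicle 1, 2 and 3 and 0.0581, 0.102 and 0.129 without TP-18 1, 2 and 3. Tcf7, a factor of stem-like T cells, had an adjusted p of 0.0572 at a log2 change of 1.16, and Nr4a1, an early gene of receptor stimulation, 0.0809 at -0.73.

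The tested genes whose pattern over the 6 tumors was most like that of each member were found by the root mean square distance of log2 levels (CPM + 0.5) centred on their mean over the tumors. The members themselves deviated from their mean by 0.27 (Cd80) to 1.23 (Pdcd1lg2), and treatment is shared by all genes in this measure. For Cd28 the nearest of the tested genes was Icos, at 0.117, and among pairs of members this distance was the smallest. Gvin2 also lay near Cd28, at 0.138. For Icos the nearest were Ly6c1 at 0.072 and Parp14 at 0.0833. Ly6c1, Gvin2 and Cd200r4 have near-identical relatives, so their counts are uncertain. For Pdcd1 the nearest were Gpr65 at 0.081, the CD3 chain Cd3d at 0.137 and Lair1 at 0.141. For Pdcd1lg2 they were the T cell surface protein Cd6 at 0.105, AW112010 at 0.13 and Il18bp at 0.182. For Cd274 they were the complement gene C3 at 0.178, Slc11a1 at 0.197 and Cd200r4 at 0.205, and for Ctla4 Slc2a3 at 0.244, Ptprf at 0.267 and Dennd3 at 0.298, the widest of the 10. Cd80 lay nearest to Bmp2 at 0.0541, Gm35039 at 0.065 and Fyb2 at 0.0755, and Cd86 to Cebpa at 0.0608, Marcks at 0.0778 and Hspa2 at 0.0798. Icosl lay nearest to 2500004C02Rik at 0.117, Prdm11 at 0.127 and Pilra at 0.141, and Cd276 to LOC115490344 at 0.0507, Ets2 at 0.098 and Dpep3 at 0.11. The added 0.5 narrows the pattern of genes near or below 1 CPM, so their distances are uncertain. LOC115490344 (0.188 to 0.949 CPM) and Dpep3 (0.215 to 1.14 CPM) had log2 changes of -0.83 and -0.95, against -0.47 for Cd276. Fyb2 reached at most 0.999 CPM in any tumor, and Cd6 at most 0.562 CPM in vehicle tumors. Nothing about shared function or control follows from these distances.

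Several members are neighbours in the genome. On chromosome 1, Cd28 and Ctla4 are 136 kb apart and Ctla4 and Icos 44.9 kb, and on chromosome 19 Cd274 and Pdcd1lg2 are 22.8 kb apart. Raph1, 179 kb from Cd28, had 67.8 CPM in TP-18 and 68.4 CPM in vehicle tumors on average (edgeR adjusted p = 0.959), and, like the genes beside it here, was looked at after its values were known. Within 200 kb of the chromosome 19 pair, the 5 tested protein-coding genes Jak2, Insl6, Plgrkt, Ric1 and Ermp1 had log2 changes of 0.19, 0.68, 0.21, 0.33 and 0.17, none of which passed in edgeR (adjusted p from 0.0992 to 0.263). Of 29 tested neighbours of all 10 members, members left out, edgeR called 1 higher and 3 lower. Over all tested genes edgeR called 7.09% higher and 5.26% lower, so these few calls do not set the neighbours apart. The higher one was Trpm2, 99.5 kb from Icosl (log2 change 1.83, adjusted p = 0.00952), and the lower ones were Adprh (-0.38, 0.0298) and Maats1 (-1.12, 0.0499) near Cd80 and Nptn (-0.28, 0.0454) near Cd276. Plgrkt overlaps the span of Cd274 in RefSeq and measured 26.1 CPM in TP-18 and 22.6 CPM in vehicle tumors on average. An antisense RNA, A930007I19Rik, overlaps Pdcd1lg2 in the GENCODE annotation but lies 30.7 kb from it in RefSeq. It measured 0.212 CPM in TP-18 and 0.201 CPM in vehicle tumors on average. The strand setting of the counting is not given in the sources used here, so reads of overlapping genes on opposite strands may not have been told apart.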

How the data were processed

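RNA of 6 tumors was sequenced, and per the submitters' processing notes fastp, HISAT2, HTSeq and the build GRCm38 were used. Tool versions and the strand setting were not found in the labels. The deposited counts are whole numbers per gene without normalization, with library totals of 34813482 to 36489081. In the authors' FPKM table every value is the count over 1 fixed length per gene and the library's total, which held within 0.01 base in all 12216 genes with at least 20 counts in every library. The definition of that length was not found in the labels.

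Counts were tested in R 4.3.3 with edgeR 4.0.16 (filterByExpr with minimum count 10 and minimum total 15, leaving 14189 genes; TMM scaling; robust quasi-likelihood F test on group; Benjamini-Hochberg over all tested genes, threshold 0.05). The test is two-sided, and standard errors and 95% intervals came from its F values. TMM-scaled CPM are shown. Alternatives used DESeq2 1.42.0 and limma 3.58.1, with limma-voom on counts and a trend test on log2 FPKM with pseudocounts of 1 and 0.1. Ratios were tested in scipy 1.17.1. Intervals cover the spread between tumors only, and PCR copies cannot be recognized in count tables. The procedure was tested on simulated data.

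The members and lists were chosen with earlier results of these data known. All 118 list symbols matched. Named genes are the 10 members, at most 5 called and 2 other genes per pathway list by smallest p, and the 3 nearest patterns per member, except where said otherwise; some genes that this rule names are not reported here. The labels do not say that samples came from separate mice, so p-values measure only the spread between these samples.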

Additional observations from a re-analysis of the deposited data

How the results depend on the processing

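Under all scalings, filters, tests and units tried, the count of members higher was 4 and of members lower 0, except for 5 higher without vehicle 1. No member's log2 change turned sign in those fits. The 4 calls also passed with the replicate number as a block, where edgeR adjusted p-values were 0.0265 for Pdcd1, 0.0248 for Cd28, 0.0249 for Icos and 0.0283 for Pdcd1lg2, while the labels state no pairing and deviations of equal-numbered tumors correlated at 0.255, -0.0989 and -0.0664. Over all genes, calls with the block were 547 higher and 231 lower, against 1006 and 747 without it. They were 662 higher and 78 lower on unfiltered log2 FPKM, 1424 and 238 with an FPKM pseudocount of 1, and 1468 and 256 with 0.1, where the median of all genes was 0.13 against -0.01 in the counts. Those FPKM fits also differ from the reported one in test and in scaling by library total. DESeq2 called 1464 higher and 1240 lower, and an adjusted p under 0.10 gave 1609 and 1413. Leaving out single tumors gave from 388 higher and 111 lower (without TP-18 3) to 1216 higher and 1023 lower (without vehicle 1). The causes were not tested.

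Several ratio differences, none of which could pass their test, changed sign. Pdcd1 to the CD3 chains, 0.01 as reported, was -0.05 with mean log2 marker levels, -0.13 with other T cell markers and -0.11 to 0.12 leaving out single tumors. On leaving out single tumors Cd28 to CD3 ran from -0.75 to 0.15, Icos to CD3 from -0.64 to 0.07, Icosl to macrophage markers from -0.26 to 0.26, Pdcd1 to Cd28 from -0.11 to 0.77 and Icos to Cd28 from -0.09 to 0.11. Against all dendritic cell markers, Cd86 was at 0.54 and Icosl at 0.71, and without Fscn1 they were at -0.64 and -0.47. Cd274 was at 1.37 with Fscn1 and 0.19 without it, against 0.60 as reported. With 3 tumors a group, an exact test cannot go below p = 0.1, and genes at Pdcd1lg2's vehicle depth rest on 96 reads.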
